A study of Mus musculus with 24 samples.

Results

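EMB+ cells of the vertebrae were compared with EMB+ cells of the long bones of mice, in both cases cells labelled GFP-. Of 21948 protein-coding genes kept from the table, 10922 reached an FPKM of 1 in 4 or more of the 8 libraries compared and are described here. FPKM counts RNA fragments relative to transcript length and library size, so it is a level per length. The vertebral GFP- EMB+ group (4 libraries) was sorted from spine and the long bone EMB+ group (4 libraries) from femur and tibia, both of male mice on postnatal day 10 whose genotype is labelled WT. Cells of both groups carried CD200 and EMB and lacked CD105, 6C3, Thy and the blood and vessel markers CD45, TER119 and CD31. EMB is embigin, a surface glycoprotein of the immunoglobulin superfamily. GFP marks cells in which a Zic1-linked Cre has been active, and Zic1 encodes a zinc finger protein active dorsally in the embryonic trunk. A GFP- cell is thus defined by what it lacks, and how the WT label relates to the Cre and reporter alleles is not stated. The other groups used beside these had 4 libraries each: vertebral GFP+ EMB+, vertebral GFP- EMB- and long bone EMB- cells.

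The titles of the 4 vertebral GFP- EMB+ libraries name Emb-GFP+ cells, while their cell type labels and the design text of the series name GFP- EMB+ cells. The cell type label was used for grouping, and every result below rests on them. In these libraries Emb ranged from 44.4 to 55.3 FPKM and Zic1 from 0 to 0.108. The vertebral GFP- EMB- group averaged 1.03 ± 0.206 FPKM of Emb (SD, n = 4), and the vertebral GFP+ EMB+ group averaged 1.87 ± 0.396 FPKM of Zic1. The titles call the replicates biological without saying whether each is its own animal, and a p-value here can speak only to library-to-library spread, which may be technical. Running codes in the titles are lower for all vertebral than for all long bone libraries, so the code range and the site cannot be told apart.

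The vertebral column forms from the sclerotome of the somites around the notochord, and the limb skeleton forms from lateral plate mesoderm of the limb bud. Skeletal cells of each origin keep part of a code of transcription factors that records position, with Hox genes among its best known members. In the growth plate, resting cells feed columns of dividing chondrocytes that mature into hypertrophic cells. Indian hedgehog and parathyroid hormone-related protein, which signals through Pth1r, set the pace of that maturation.

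Both groups carried the RNA of growth plate cartilage. Col2a1 ranged from 36833 to 38632 FPKM in vertebral and from 21746 to 32064 FPKM in long bone libraries, and Sox9, Acan, Col9a1 and Matn3 were present in all 8. Summed FPKM per library lay between 423657 and 453954, and the number of reads behind the values is unknown. Libraries of 1 group correlated over genes at 0.9782 to 0.9880 and libraries of different groups at 0.9417 to 0.9596. The 4 long bone EMB+ libraries fell into pairs. The osteoblast list summed to 46290 and 51347 FPKM in replicates 1 and 2 and to 24990 and 24761 in replicates 3 and 4, and the chondrocyte list to 43674 and 38266 against 55428 and 53371. The vertebral libraries lay outside both pairs, at 10678 to 13558 and 73648 to 77315. In bulk RNA of this kind, fewer cells of a type and less RNA per cell cannot be told apart.

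Of the 10922 genes, 2120 (19.4%) passed the test (adjusted p under 0.05 in a limma fit of log2(FPKM + 1) over all 24 libraries). In vertebral cells 951 were higher (8.71%) and 1169 lower (10.7%), and 234 and 402 of these differed by 2-fold or more on this scale. Counts within the gene lists below are to be read beside these 2 shares, which hold for adjusted p. Counts at an unadjusted p have no such share beside them. Of the 10922 genes, 75 stayed under FPKM 1 in all 4 long bone EMB+ libraries and 94 in all 4 vertebral GFP- EMB+ libraries. Such genes passed the filter only through the other group, so their direction was fixed in advance. The 4 and 4 values did not overlap for 2761 genes (25.3%), of which 1895 were called. The median difference over all genes described was 0.0118 on the log2 scale. Without long bone EMB+ replicates 1 and 2, 508 genes were higher in vertebral cells. Differences below are vertebral minus long bone on the log2(FPKM + 1) scale ± SE, which understates the change of low genes. Emb itself was 49.5 ± 4.70 FPKM in vertebral and 34.7 ± 4.58 in long bone cells (0.51 ± 0.12, adjusted p = 0.0026), a call lost without long bone EMB+ replicates 1 and 2 (adjusted p = 0.102).

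Limb transcription factors separated the sites. Of 25 listed limb identity factors 15 passed the filter, and 11 of these were lower and 2 higher in vertebral cells, with a median difference of -1.02. Pitx1, Shox2, Tbx3, Tbx4 and Tbx5 passed the filter only through long bone libraries, and En1 only through vertebral ones. The filter fixed the direction of these genes, so their part of the count is no separate support. Pitx1, which specifies hindlimb identity, was listed at 0 in all 4 vertebral libraries and stood at 29.9, 23.6, 37.9 and 37.3 FPKM in the long bone libraries (adjusted p = 1.9e-16). Shox2, a homeobox gene needed for growth of the upper limb segments, measured 0.592, 0.222, 0.298 and 0.289 FPKM in vertebral and 45.1, 46.5, 48.6 and 41.6 in long bone cells (-5.11 ± 0.15, adjusted p = 9.4e-19). For both genes the lowest long bone library lay far above the highest vertebral one.

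Tbx4, the T-box factor of the hindlimb bud, followed them at 0.128, 0.115, 0.0803 and 0.0867 against 5.65, 5.88, 9.16 and 10.1 FPKM (-2.94 ± 0.17, adjusted p = 1e-12). Tbx5, its forelimb relative, was also measurable in these hindlimb bones, at 1.81, 1.38, 3.53 and 3.27 FPKM against at most 0.0964 in vertebral cells (-1.70 ± 0.16, adjusted p = 1e-08). Tbx15 was 1.14, 0.9995, 1.05 and 2.37 against 14.7, 14.2, 27.5 and 23.5 FPKM (-3.12 ± 0.25). Vertebral replicate 4 was the highest of its group for Tbx15, and the long bone replicates 3 and 4 exceeded replicates 1 and 2 for all 3 of these T-box genes. Tbx2 showed the opposite order within the long bone group, with 34.5, 34.6, 18.001 and 18.8 FPKM against 5.27, 5.35, 6.78 and 8.35 in vertebral cells (-1.84 ± 0.27). Tbx3 averaged 0.392 ± 0.220 against 2.74 ± 0.555 FPKM (-1.43 ± 0.16), and Irx3 3.74 ± 0.764 against 7.10 ± 0.909 (-0.78 ± 0.17).

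Mab21l2, a limb and eye development gene outside the list, was named for its size of change: 0, 0, 0.144 and 0 against 9.05, 12.4, 10.6 and 11.6 FPKM (-3.52 ± 0.12, adjusted p = 1.4e-17). Msx2, a homeobox target of BMP signals, was 0.875 ± 0.288 against 2.95 ± 1.36 FPKM (-1.02 ± 0.24), a call lost without long bone EMB+ replicates 3 and 4 (adjusted p = 0.15). Prrx1 and Irx5 passed narrowly (adjusted p = 0.034 and 0.044) and lost the call on leaving out vertebral replicate 2 or 4 or long bone replicate 2 or 4, and each with further single libraries. Their adjusted p was 0.108 and 0.501 without long bone replicates 1 and 2, and Prrx1 had 0.152 without replicates 3 and 4. Irx5 also lost the call with a pseudocount of 0.1, no filter, quantile normalization and median-ratio scaling (adjusted p = 0.0503 to 0.0649). Msx1 and Zbtb16 were not called, with 95% intervals of -0.34 to 0.52 and -0.31 to 0.30. A pair of homeobox genes ran the other way. En1 was 3.54, 4.36, 2.54 and 4.13 FPKM in vertebral cells and at most 0.0301 in long bone cells (2.186 ± 0.13, adjusted p = 3.9e-12), and Prrx2 was 14.5, 15.2, 17.3 and 17.6 against 7.10, 7.40, 6.37 and 6.82 (1.11 ± 0.20). The other 10 factors, Hand2 and Isl1 among them, did not pass the filter, and both were listed at 0 in the 4 vertebral libraries.

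**Figure D1:**
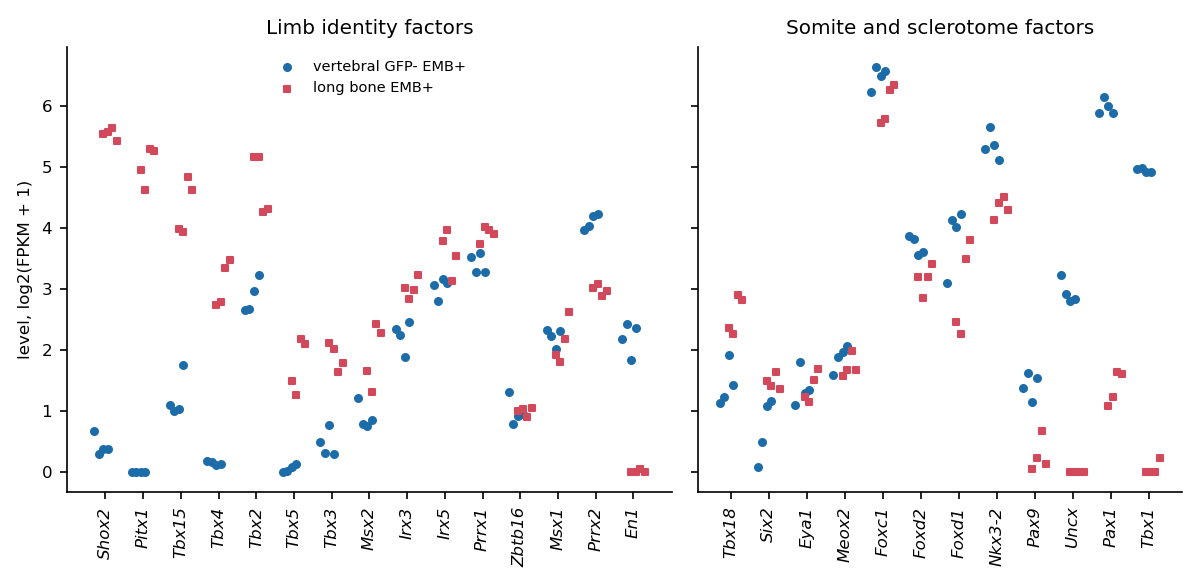
Levels of named limb identity factors and of named somite and sclerotome factors in each library, as log2(FPKM + 1), with circles for the 4 vertebral GFP- EMB+ and squares for the 4 long bone EMB+ libraries, ordered by the difference. Shox2, Pitx1 and Tbx4 lie near 0 in vertebral cells, and Uncx, Pax1 and Tbx1 near 0 to 2 in long bone cells.

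Somite and sclerotome factors gave the mirror image for their best known members. Of 21 listed, 13 passed the filter, of which 7 were higher and 2 lower in vertebral cells, with a median of 0.547. Uncx, Tbx1 and Pax9 passed the filter only through vertebral libraries, which fixed their direction. Pax1, which drives sclerotome cells towards vertebral cartilage, was 57.8, 69.2, 62.4 and 58.1 FPKM in vertebral and 1.11, 1.33, 2.098 and 2.03 in long bone cells (4.59 ± 0.15, adjusted p = 1.2e-17). Its partner Pax9 was far lower at both sites, 1.69 ± 0.385 against 0.218 ± 0.254 FPKM (1.15 ± 0.15). Uncx, a homeobox gene of the caudal sclerotome, stood at 8.36, 6.53, 5.94 and 6.08 FPKM in vertebral cells, and the 4 long bone libraries list it at 0 (adjusted p = 1.2e-14).

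Tbx1, a T-box gene better known from the pharyngeal arches and also active in sclerotome, had nearly the same level in every vertebral library, 30.2, 30.5, 29.2 and 29.0 FPKM. In long bone cells it was listed at 0 in 3 libraries and at 0.167 in the fourth (4.89 ± 0.19, adjusted p = 2.9e-16). Nkx3-2, a repressor that keeps cartilage from maturing, differed less: 38.0, 49.1, 39.8 and 33.7 against 16.5, 20.3, 21.7 and 18.6 FPKM (1.02 ± 0.12, adjusted p = 1.1e-06). Both sites thus expressed Nkx3-2, and the groups did not overlap.

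Foxd2 and Foxc1 passed at adjusted p = 0.018 and 0.04. The Foxd2 call was lost without vertebral replicate 1 or 2 or long bone replicate 2, and the Foxc1 call without vertebral replicate 2, 3 or 4 or long bone replicate 1 or 2. Their adjusted p was 0.204 and 0.607 without long bone replicates 1 and 2. The Foxc1 call was also lost with no filter, quantile normalization and median-ratio scaling (adjusted p = 0.0538 to 0.068). Tbx18, also expressed in early somites, was lower in vertebral cells, 1.18, 1.34, 2.77 and 1.67 against 4.10, 3.79, 6.48 and 6.06 FPKM (-1.16 ± 0.21, adjusted p = 0.00015). Meox2, Foxd1, Six2 and Eya1 were not called, though Six2 passed without vertebral replicate 3 or 4 or long bone EMB- replicate 4 (adjusted p = 0.0334 to 0.0421) and Foxd1 without long bone replicates 3 and 4 (adjusted p = 0.0219). Of 5 axis and neural crest factors that passed the filter, Nkx6-1 was lower (2.18 ± 0.474 against 4.12 ± 0.721 FPKM, -0.69 ± 0.15), and Snai1 and Snai2 were higher (0.44 ± 0.12 and 0.60 ± 0.16). The Snai1 call was lost without long bone replicate 2 (adjusted p = 0.0596) and without replicates 1 and 2 (adjusted p = 0.21), and the Snai2 call without replicates 1 and 2 (adjusted p = 0.233).

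The promoters of 3 of these position genes, and of Msmp, whose difference was the largest of the genes lower in vertebral cells, are shown because their levels at the 2 sites lay far apart. Each is the 250 bases before the RefSeq start (GRCm38.p6), 5′ to 3′ on the strand of the gene, with 3 short motifs in capitals wherever either strand held them. These are the TATA box (TATAAA), found in 12.4% of 32817 windows of this length, the CCAAT box (spelled as its name), found in 33.8%, and a core that homeodomain proteins bind (TAATTA), found in 4.85%.
Tbx4, chr11:85896515-85896764, plus strand: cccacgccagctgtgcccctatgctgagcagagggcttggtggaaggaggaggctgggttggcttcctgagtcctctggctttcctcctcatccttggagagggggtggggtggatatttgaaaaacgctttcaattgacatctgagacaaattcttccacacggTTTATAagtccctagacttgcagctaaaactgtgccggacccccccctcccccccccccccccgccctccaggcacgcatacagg
Pax1, chr2:147364744-147364993, plus strand: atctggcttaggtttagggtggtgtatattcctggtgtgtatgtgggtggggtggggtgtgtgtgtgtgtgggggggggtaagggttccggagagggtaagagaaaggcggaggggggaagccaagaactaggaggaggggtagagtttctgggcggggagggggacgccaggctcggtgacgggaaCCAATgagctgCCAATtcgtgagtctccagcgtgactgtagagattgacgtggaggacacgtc
Uncx, chr5:139543648-139543897, plus strand: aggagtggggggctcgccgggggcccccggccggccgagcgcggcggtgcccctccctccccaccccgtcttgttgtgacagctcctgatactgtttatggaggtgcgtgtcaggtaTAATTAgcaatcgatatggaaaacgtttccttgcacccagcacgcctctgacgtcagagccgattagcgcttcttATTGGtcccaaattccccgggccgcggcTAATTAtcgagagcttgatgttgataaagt
Msmp, chr4:43584495-43584744, minus strand: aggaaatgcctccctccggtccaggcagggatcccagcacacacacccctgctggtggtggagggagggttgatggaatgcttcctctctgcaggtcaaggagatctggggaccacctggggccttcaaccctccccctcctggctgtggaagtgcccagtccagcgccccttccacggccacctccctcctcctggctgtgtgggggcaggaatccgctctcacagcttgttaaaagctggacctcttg
The windows of Tbx4, Pax1 and Uncx lie within the genes as the table gives them, from 85886422 to 85916097 on chromosome 11, from 147361925 to 147393295 on chromosome 2 and from 139543494 to 139548179 on chromosome 5. Tbx4 holds TTTATA, the reverse of TATAAA, from 85 bases before the start. Pax1 has CCAAT at 63 and 52 bases before the start, and Uncx has its reverse ATTGG at 58 and TAATTA at 133 and 30 bases before it. The Msmp window holds none of the 3 sequences. GC content was 58.4% for Tbx4 and Uncx, 58.8% for Pax1 and 62.8% for Msmp. A match describes letters only. Promoters were found for 132 of the genes named, and 58 had no entry, Pitx1, Tbx15 and Hoxb7 among them.

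Hox genes differed by their place in the clusters. Across the 4 clusters 21 Hox genes passed the filter, of which 14 were higher and 4 lower in vertebral cells and 3 were not called. At least Hoxb6 and Hoxb7 passed the filter only through vertebral libraries, which fixed their direction. Hox genes lie in their clusters in the order in which they are used along the body axis, low numbers towards the head. All 9 called genes numbered 2 to 7 in clusters A and B, and Hoxb9, were higher in vertebral cells, as were Hoxc4, Hoxc5, Hoxc6 and Hoxc8, and the 4 lower genes were Hoxa9, Hoxa10, Hoxa11 and Hoxc10. These directions were the same with quantile normalization and with median-ratio scaling.

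Hoxb7 showed the widest gap, 19.4, 17.0, 13.4 and 16.7 FPKM in vertebral cells against 0.0421, 0.285, 0 and 0 in long bone cells (4.02 ± 0.15, adjusted p = 3.2e-16). Hoxb6 was 7.41, 5.94, 4.75 and 7.50 against 0.167, 0, 0 and 0.0830 FPKM (2.78 ± 0.17), and Hoxc8 30.0, 21.2, 21.7 and 24.3 against 3.33, 2.97, 1.98 and 2.95 (2.73 ± 0.14, adjusted p = 2.5e-13). Long bone cells thus kept some Hoxc8 RNA and nearly no Hoxb6 or Hoxb7. Hoxa7 was present at both sites, 19.3 ± 2.27 against 8.39 ± 1.18 FPKM (1.12 ± 0.18), and so was Hoxb2, 19.8 ± 2.85 against 9.30 ± 4.21 (1.10 ± 0.23). The Hoxb2 call was lost without long bone replicates 3 and 4 (adjusted p = 0.0736).

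Hoxa10 was the most abundant Hox gene of long bone cells, 41.5, 40.4, 46.0 and 41.2 FPKM against 6.20, 12.5, 11.1 and 12.3 in vertebral cells (-1.95 ± 0.17, adjusted p = 4e-09). Vertebral replicate 1 had the lowest Hoxa10, and it also had the lowest Hoxa9, 0.909 FPKM against 3.03 to 4.30 in the other 3 libraries. Hoxa11 was 1.57, 2.57, 1.97 and 3.42 against 10.99, 10.96, 13.8 and 11.3 FPKM (-1.94 ± 0.21), and Hoxc10 3.68 ± 0.745 against 11.1 ± 1.44 (-1.38 ± 0.19). Hoxa9 averaged 2.99 ± 1.48 against 7.80 ± 0.622 FPKM (-1.24 ± 0.27).

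Hoxc9 did not overlap between groups but was not called (-0.44 ± 0.18, adjusted p = 0.091), and it passed without long bone EMB- replicate 4, which enters the spread (adjusted p = 0.0422), with library weights and in a fit of the 8 libraries alone. Hoxd8 and Hoxd9 overlapped and were not called, with 95% intervals of -0.36 to 0.77 and -0.47 to 0.42. Hoxa3, Hoxa5 and Hoxa6 share a stretch of overlapping loci, as do Hoxc4, Hoxc5 and Hoxc6, and the libraries do not mark strand, so the split of reads within these stretches is uncertain. The Hoxc5 call was lost without long bone replicates 1 and 2 (adjusted p = 0.0606), and Hoxd8 passed without replicates 3 and 4 (adjusted p = 0.0359). With a stricter filter of FPKM 5 or more, which left out low genes, 2 genes each of clusters A and C were called higher. Of the cofactors of Hox proteins, 10 passed the filter and 1 was called, Pknox2, a call lost without long bone replicate 1 (adjusted p = 0.0512) and without replicates 1 and 2 (adjusted p = 0.256).

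**Figure D2:**
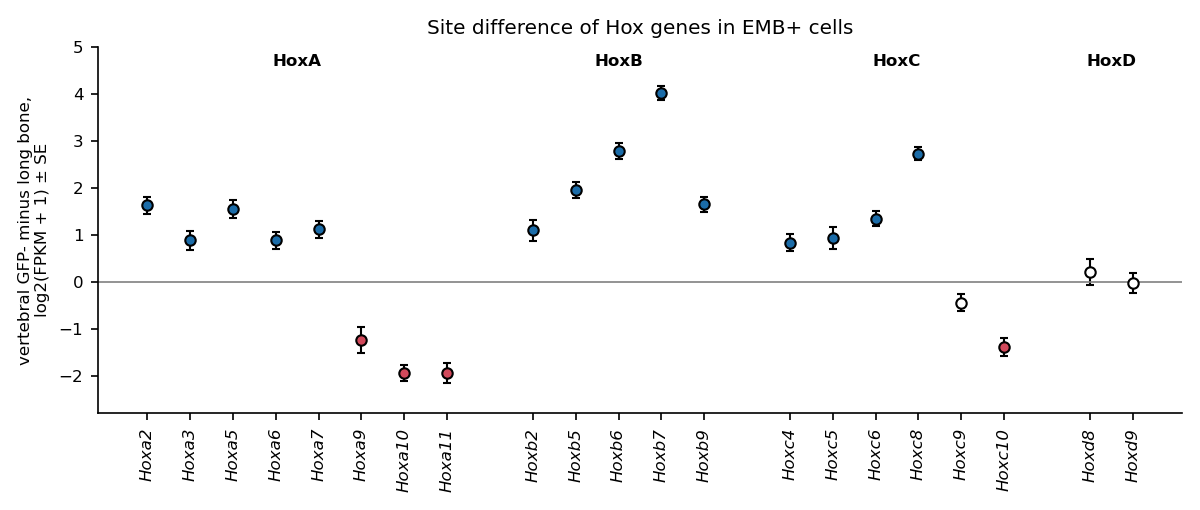
Vertebral GFP- minus long bone difference of each Hox gene in EMB+ cells, log2(FPKM + 1) ± SE, in cluster and number order; filled points passed adjusted p under 0.05 (blue higher, red lower in vertebral cells). Values run from 4.02 for Hoxb7 to -1.95 for Hoxa10, and Hoxc9, Hoxd8 and Hoxd9 are open.

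Genes that mark notochord were higher in vertebral cells, and T and the keratins were under 2 FPKM in every long bone EMB+ library. The notochord is the midline rod that becomes the nucleus pulposus of the disc. Of 11 listed genes 7 passed the filter, of which 6 were higher in vertebral cells and Slc2a1, a glucose transporter, was not called. T, Krt18 and Krt19 passed the filter only through vertebral libraries, so their direction was fixed and the count is no separate support for them. T, the brachyury factor that defines notochord, was 9.64, 12.2, 13.4 and 13.3 FPKM in vertebral libraries and 0.117 in a single long bone library, listed at 0 in the other 3 (3.67 ± 0.14, adjusted p = 4.6e-16). Krt19 was 25.3, 34.7, 26.7 and 43.4 against 0.0277, 0.207, 0.122 and 0 FPKM (4.92 ± 0.19, adjusted p = 4.2e-16), and Krt8 29.7, 44.3, 48.0 and 57.3 against 0.758, 0.681, 1.80 and 0.983 (4.47 ± 0.23). These keratins are epithelial filaments that notochord cells also make. Krt18, the partner of Krt8, was lower than it, 6.73 ± 2.83 against 0.447 ± 0.267 FPKM (2.36 ± 0.21). Noto was listed at 0 in all 8 libraries, and Shh, Foxa1 and Sox2 did not pass the filter.

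Vertebral GFP+ EMB+ cells, from the same site, were set beside them. T averaged 0.0439 ± 0.0878 FPKM there, Krt19 0.425 ± 0.400 and Krt8 0.436 ± 0.236. The differences between GFP+ and GFP- cells were -3.65 ± 0.14 for T (adjusted p = 2.3e-15), -4.56 ± 0.19 for Krt19 (adjusted p = 6.5e-15) and -4.98 ± 0.23 for Krt8 (adjusted p = 3.1e-14). Comparisons of GFP- EMB+ cells with GFP+ and with long bone cells share the 4 GFP- libraries.

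Several genes of other kinds had this pattern too. Serpina1e, a member of the alpha-1 antitrypsin family, was 46.4, 67.1, 61.0 and 64.7 FPKM in vertebral GFP- EMB+ cells, listed at 0 in all long bone EMB+ libraries and 0.545 ± 0.236 in GFP+ cells (-5.30 ± 0.16, adjusted p = 3.6e-18). Near-identical copies of this gene exist, so which copy the reads came from is uncertain. Tbx1 dropped from 29.7 ± 0.754 to 2.02 ± 0.973 FPKM in GFP+ cells (-3.40 ± 0.19, adjusted p = 1.2e-12), a level still above long bone. Hopx, a small homeodomain protein, was 25.8, 28.2, 38.6 and 38.8 FPKM in GFP-, 3.903 ± 0.747 in GFP+ and 3.17 ± 0.611 in long bone cells. Tmem163, a zinc transporter, was 12.3 ± 2.76, 0.210 ± 0.246 and 0.454 ± 0.141 FPKM in the same order, and the transporter Slc15a5 was 10.7 ± 2.37, 0.148 ± 0.296 and 0.0121 ± 0.0141. Cck, the precursor of cholecystokinin, varied most, 6.57, 8.0002, 13.9 and 28.7 FPKM in the GFP- libraries against 0.665 ± 0.0859 in long bone cells. Sostdc1, a secreted inhibitor of BMP and Wnt signals, was 12.2, 23.7, 24.3 and 31.2 FPKM against 1.56 ± 0.365 in GFP+ and 4.39 ± 0.601 in long bone cells. The lower level in GFP+ cells passed the test for all 5 (adjusted p = 2.7e-10 for Hopx, 1.6e-12 for Tmem163, 4.4e-13 for Slc15a5, 1e-06 for Cck and 8.1e-12 for Sostdc1).

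Other genes that were higher in vertebral cells did not pass the test between GFP+ and GFP- cells. Foxa2, a forkhead factor of notochord and of early chondrocytes, was 16.7, 17.96, 19.0 and 14.0 FPKM in GFP- EMB+ cells, 15.3 ± 4.08 in GFP+ and 2.72, 1.95, 3.38 and 4.25 in long bone cells (2.16 ± 0.24, adjusted p = 2.7e-07). Its GFP+ minus GFP- difference had a 95% interval of -0.66 to 0.33. The intervals were -0.0022 to 0.61 for Pax1, -0.54 to 0.01 for Uncx, -0.14 to 0.50 for Hoxb7 and -0.68 to 0.07 for Cd24a, a surface glycoprotein. For Hoxc8 the interval was -0.72 to -0.12, and the test passed with library weights (adjusted p = 0.029) and with a pseudocount of 5 (adjusted p = 0.0365). Foxa2 and Cd24a stand on the notochord list, and Cd24a was 251 ± 11.99 FPKM in GFP- EMB+, 203 ± 15.5 in GFP+ and 117 ± 22.5 in long bone cells.

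**Figure D3:**
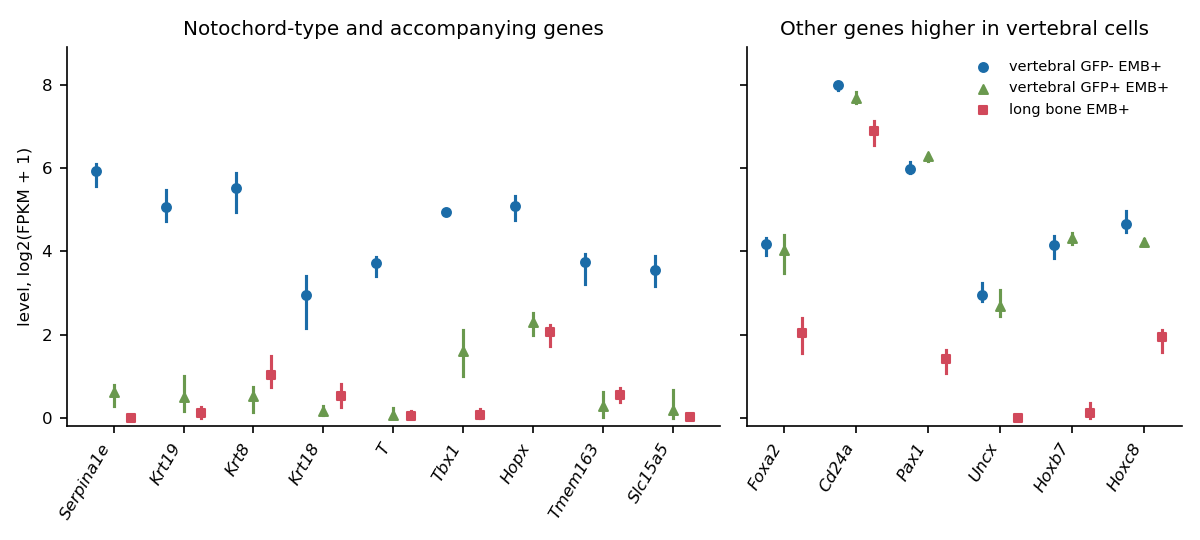
Mean level of each gene, log2(FPKM + 1), in vertebral GFP- EMB+ (circles), vertebral GFP+ EMB+ (triangles) and long bone EMB+ cells (squares), with lines from the lowest to the highest of 4 libraries. In the left panel only the GFP- libraries are high, except that Tbx1 lies between in GFP+ cells; in the right panel both vertebral groups lie above long bone.

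Cartilage genes were mostly higher in vertebral cells. Of 24 listed growth plate chondrocyte genes, all of which passed the filter, 19 were higher and 1 lower, with a median of 0.596. Chad, chondroadherin, a leucine-rich matrix protein that binds collagen, was 5619, 7481, 5485 and 5207 FPKM in vertebral and 1095, 1173, 1345 and 1277 in long bone cells (2.27 ± 0.16, adjusted p = 6.7e-11). Comp, a thrombospondin-type matrix protein, was 5822, 5574, 5825 and 5654 against 2040.2, 2037, 2747 and 2751 FPKM (1.27 ± 0.15, adjusted p = 5.6e-07). Matn3, a matrilin of growth plate cartilage, was 2213, 2389.6, 2131 and 1985 against 650.0, 614, 861 and 837 (1.57 ± 0.21). In all 3 the lowest vertebral library was above the highest long bone library.

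Pth1r, the receptor of parathyroid hormone-related protein, was 723, 731, 654 and 686 against 321, 326, 266 and 262 FPKM (1.25 ± 0.11, adjusted p = 7.3e-09). Cytl1, a small secreted protein of cartilage, was 696 ± 92.3 against 223 ± 75.4 (1.70 ± 0.28), and Sox9, the master factor of chondrocytes, 521 ± 36.9 against 279 ± 64.8 (0.92 ± 0.16, adjusted p = 8.8e-05). The difference was smaller for the main matrix genes. Col2a1 was 37950.3 ± 782 against 27466 ± 4742 FPKM (0.48 ± 0.13, adjusted p = 0.0081) and Acan 613 ± 22.01 against 433 ± 88.0 (0.52 ± 0.13, adjusted p = 0.0057). Without long bone EMB+ replicates 1 and 2, 7 of the 24 genes were higher and 2 lower, and the calls for Col2a1 (adjusted p = 0.19) and Acan (adjusted p = 0.255) were lost. Quantile normalization gives genes of equal rank the same value in every library. It set the Col2a1 difference to 0, so it cannot test Col2a1, the most abundant of these genes.

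Matn1, another matrilin, was the exception. It was 35.2, 40.1, 39.5 and 45.6 FPKM in vertebral and 486, 429, 629 and 622 in long bone cells (-3.71 ± 0.19, adjusted p = 1.3e-13). Vertebral GFP+ cells were lower still, at 20.5 ± 3.61 FPKM (-0.95 ± 0.19, adjusted p = 0.0041). Matn1 and Matn3 are related proteins of the same matrix, and their differences had opposite signs.

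Genes of hypertrophy divided. Of 24 genes on the hypertrophic and mineralisation list, 7 were higher and 7 lower in vertebral cells. Ihh, the hedgehog ligand of prehypertrophic cells, was 165.5, 152, 168.4 and 151 FPKM in vertebral and 26.6, 22.4, 25.9 and 35.3 in long bone cells (2.51 ± 0.20, adjusted p = 1e-09). Arsi, a sulfatase, was 157, 103, 122 and 115 against 35.6, 35.8, 42.0 and 37.2 (1.68 ± 0.13, adjusted p = 3.9e-10). The maturation factors Runx3 and Dlx5 were higher by less, 21.4 ± 1.58 against 13.2 ± 1.62 FPKM (0.66 ± 0.14) and 81.2 ± 4.16 against 54.1 ± 9.26 (0.59 ± 0.13). Runx2 and Sp7 were not called, with 95% intervals of -0.42 to 0.28 and -0.33 to 0.49.

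Other members of the list were mixed. Panx3, a channel protein of prehypertrophic cells, and Ank, a pyrophosphate transporter, were higher (0.69 ± 0.16 and 0.47 ± 0.14), and Dlx6, a relative of Dlx5, was lower (-0.79 ± 0.21). These 3 calls were lost without long bone replicates 1 and 2 (adjusted p = 0.0812, 0.114 and 0.115), and Dlx6 also with a pseudocount of 0.1 (adjusted p = 0.0631). The Ank call was lost in 7 of the alternatives, both scalings among them. Among the 10 genes not called were Alpl, Phospho1, Enpp1, Mepe and Slc20a1.

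Other genes known from hypertrophic cells were lower. Col10a1, the collagen of hypertrophic cells, was 154, 113, 190.5 and 109 FPKM in vertebral and 257, 327, 342 and 264 in long bone cells (-1.09 ± 0.33, adjusted p = 0.02). That call was lost without vertebral replicate 2 or 4 or long bone replicate 2 or 3, and with a pseudocount of 0.1 (adjusted p = 0.0515 to 0.104), and without either pair of long bone replicates (adjusted p = 0.0862 without 1 and 2, 0.0939 without 3 and 4). Mmp13, the collagenase of terminal hypertrophic cells, was 132, 144, 222 and 138 against 333, 479, 308 and 265 (-1.12 ± 0.26, adjusted p = 0.0024), a call lost without long bone replicates 1 and 2 (adjusted p = 0.0688). Vegfa was 11.4, 10.7, 9.28 and 12.3 against 21.2, 18.6, 27.4 and 29.2 FPKM (-1.06 ± 0.16, adjusted p = 2.6e-05). Ibsp, bone sialoprotein, which osteoblasts also make, was 402, 389.8, 455 and 425 against 1511, 1403, 879 and 825 (-1.41 ± 0.17), with long bone replicates 1 and 2 well above 3 and 4. Without replicates 1 and 2, 3 genes of the list were lower.

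Resting zone genes were mainly lower in vertebral cells, with 6 of 10 lower, 3 higher and a median of -0.875. Sfrp5, a secreted Wnt inhibitor, was 71.5, 68.0, 66.4 and 50.4 against 180.3, 179.6, 208 and 184.7 FPKM (-1.55 ± 0.14, adjusted p = 1e-08). Barx1, a homeobox gene of articular and joint cartilage, was 11.4, 7.22, 15.01 and 19.8 against 61.2, 36.1, 75.2 and 83.0 (-2.19 ± 0.35), and Gas1, a hedgehog co-receptor, 47.6, 69.7, 85.8 and 105 against 234, 261, 324 and 353 (-1.95 ± 0.18, adjusted p = 1.2e-08). Pthlh, the ligand of Pth1r, was 9.26 ± 1.05 against 17.6 ± 3.58 FPKM (-0.85 ± 0.16, adjusted p = 0.00038). Vertebral cells thus had more receptor RNA and less ligand RNA of this pair. The 3 higher genes were Pth1r, Foxa2 and Ucma, which stand on other lists as well, and the Ucma call was lost without long bone replicates 1 and 2 (adjusted p = 0.0847).

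In the hedgehog pathway 5 of 18 genes were higher and 6 lower. Beside Ihh, Scube1, a secreted protein of a family that helps release hedgehog, was higher, 36.9, 41.9, 35.7 and 32.5 against 10.2, 9.10, 12.8 and 11.4 FPKM (1.67 ± 0.20, adjusted p = 9.6e-07), while its relative Scube2 was lower, 4.89, 6.33, 6.40 and 6.66 against 11.4, 14.4, 14.3 and 13.6 (-1.03 ± 0.17). The co-receptor Boc was 17.8, 21.7, 19.3 and 19.7 against 45.2, 44.2, 65.7 and 66.5 (-1.43 ± 0.17, adjusted p = 4.8e-07), lower in vertebral cells like Gas1. Of the target genes, Hhip was 27.9 ± 2.42 against 16.7 ± 5.07 (0.75 ± 0.17), a call lost without long bone replicates 1 and 2 (adjusted p = 0.117). Ptch1 passed at adjusted p = 0.021 and lost the call without vertebral replicate 2 or long bone replicate 1 or 2, with adjusted p = 0.416 without both of these long bone replicates. Gli1 and Smo were not called, with intervals of -0.51 to 0.13 and -0.46 to 0.10. Without long bone replicates 1 and 2, 2 of the 18 genes were higher, and without replicates 3 and 4, 3 were lower.

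Bone genes were lower in vertebral cells. Of 17 osteoblast and osteocyte genes that passed the filter, 10 were lower and 7 were not called, with a median of -0.852. Col1a1, the main collagen of bone, was 2667, 2918, 3400.0 and 3139 FPKM in vertebral and 16583, 20029, 8437 and 8212 in long bone cells (-2.03 ± 0.22, adjusted p = 1.5e-07). Col1a2 followed, 3046, 2846, 3806 and 3665 against 15771, 16953, 8147 and 8424 (-1.81 ± 0.20). Dmp1, a matrix protein of osteocytes, was 40.1, 30.6, 40.9 and 27.5 against 189.02, 204, 96.1 and 101 (-1.99 ± 0.28, adjusted p = 8.5e-06). In each of these genes long bone replicates 1 and 2 were the highest, and replicates 3 and 4 still exceeded every vertebral library.

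Ifitm5, a membrane protein of osteoblasts, was 51.7 ± 6.01 against 205 ± 87.7 FPKM (-1.87 ± 0.28). Bglap, osteocalcin, was 601 ± 162.2 against 2697 ± 916 (-2.14 ± 0.33), with the share between it and its near copy Bglap2 uncertain. The early regulators Runx2 and Sp7, given above, and Alpl, the phosphatase of mineralising cells (0.38 ± 0.17, adjusted p = 0.15), were not called. Alpl passed as higher in vertebral cells without long bone replicate 2 (adjusted p = 0.0324), without replicates 1 and 2 (adjusted p = 0.0144) and with library weights (adjusted p = 0.0365). The part that osteoblast RNA in the long bone libraries has in other results was not tested.

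**Figure D4:**
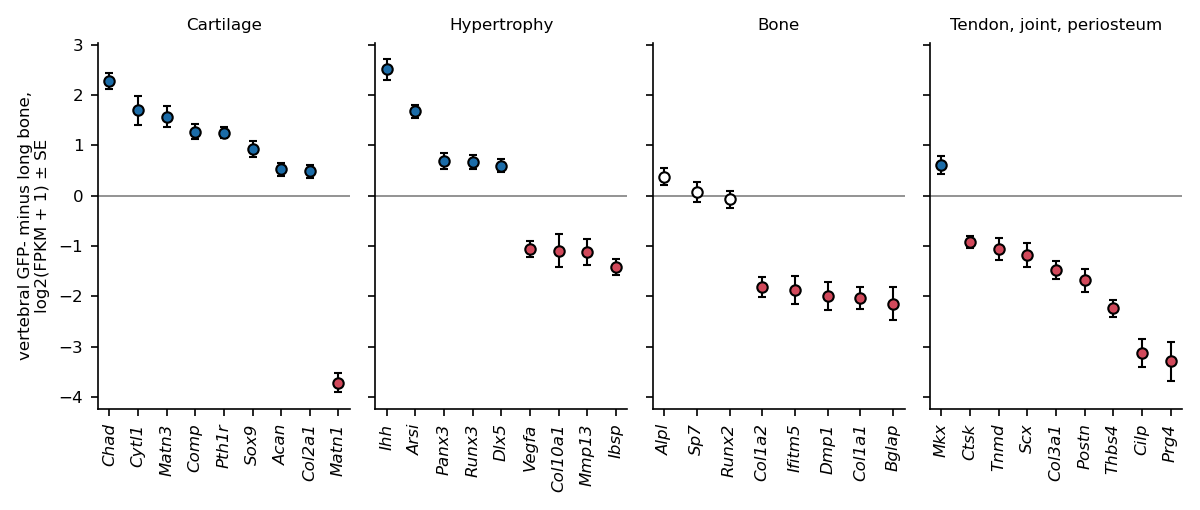
Vertebral GFP- minus long bone difference in EMB+ cells, log2(FPKM + 1) ± SE, for named genes of cartilage, hypertrophy, bone, and tendon, joint and periosteum; filled points passed adjusted p under 0.05 (blue higher, red lower in vertebral cells). Chad at 2.27 and Ihh at 2.51 are the highest and Matn1 at -3.71 the lowest of those drawn.

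Tendon, joint and periosteal genes were lower too. Of 12 tendon and ligament genes 7 were lower and 1 higher (median -1.08), and of 15 fibroblast and periosteum genes 10 were lower and 5 were not called (median -0.654). Prg4, lubricin, the lubricant of joint surfaces, was 55.1, 88.3, 106 and 288 FPKM in vertebral and 686, 823, 1329 and 1872 in long bone cells (-3.29 ± 0.39, adjusted p = 8.9e-07). It varied within both groups, and the groups did not overlap. Cilp, a protein of articular cartilage and disc, was 4.15, 5.55, 12.7 and 13.7 against 51.2, 69.6, 92.6 and 112 (-3.12 ± 0.27, adjusted p = 3.3e-09). Thbs4, a thrombospondin of tendon, was 8.60, 7.28, 12.6 and 14.0 against 43.7, 44.9, 56.5 and 67.0 (-2.24 ± 0.17, adjusted p = 3.8e-10).

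Scx, the tendon factor, was 5.29 ± 1.53 against 13.1 ± 2.83 FPKM (-1.18 ± 0.23), and its target Tnmd 18.7 ± 4.65 against 39.9 ± 8.83 (-1.06 ± 0.21). Mkx, another tendon factor, was the 1 higher gene (0.61 ± 0.18, adjusted p = 0.019), a call lost without vertebral replicate 2 or long bone replicate 1 or 2, with adjusted p = 0.294 without both of these long bone replicates. Postn, periostin, was 21.6, 19.6, 29.2 and 41.1 against 67.5, 109, 88.8 and 91.4 FPKM (-1.68 ± 0.23, adjusted p = 6.3e-06), and Col3a1 192.4, 236, 281 and 329.5 against 587, 657, 797 and 824 (-1.47 ± 0.18, adjusted p = 8.9e-07). Ctsk was 46.6 ± 2.03 against 89.3 ± 11.7 (-0.92 ± 0.12).

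Collagen genes split by type. Of 33 chains that passed the filter, 11 were higher and 17 lower in vertebral cells. The cartilage chains of types II, IX and XI were among those higher, and the fibrillar chains of types I, III and V among those lower. Col5a1 was 59.6, 53.0, 69.0 and 65.8 against 196, 203, 141 and 139 FPKM (-1.43 ± 0.12, adjusted p = 2.9e-09), and Col5a2 85.9, 84.9, 112 and 106 against 383, 391, 296 and 300.1 (-1.80 ± 0.16). The 3 beaded-filament chains Col6a1, Col6a2 and Col6a3 were all higher. Col6a1 was 748, 769.8, 781 and 719 against 349, 306, 394 and 414 (1.05 ± 0.13, adjusted p = 8.4e-07), and Col6a3 averaged 195 ± 28.8 against 91.9 ± 21.5 (1.10 ± 0.18). Col22a1, a collagen of tissue junctions, was 16.3, 14.2, 23.0 and 19.2 against 116, 116, 45.8 and 48.7 (-1.99 ± 0.31), again highest in long bone replicates 1 and 2. With quantile normalization, which cannot test Col2a1, 7 chains were higher, and without long bone replicates 1 and 2, 3 were. Collagen genes together held 13.28% ± 0.227 of summed FPKM in vertebral and 14.89% ± 1.27 in long bone libraries (SD, n = 4, exact permutation p = 0.0286, two-sided, the smallest 4 against 4 can give). Without any 1 vertebral library the p was 0.0857 to 0.114.

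Among small leucine-rich proteoglycans 4 of 14 were higher and 3 lower. Omd, osteomodulin, which binds mineral and collagen, was 368, 555, 456 and 446 FPKM in vertebral and 78.1, 94.6, 111 and 99.2 in long bone cells (2.24 ± 0.17, adjusted p = 3e-10). Podn, podocan, was 1.21 ± 0.563 against 6.51 ± 3.15 (-1.70 ± 0.26). Of 21 matrix proteases and inhibitors 12 were lower and 3 higher (median -0.562). Mmp14, a membrane-bound collagenase, was 152, 119, 128 and 135 against 238, 227, 234 and 218 FPKM (-0.78 ± 0.11, adjusted p = 4.2e-06), and Adamts2, which trims fibrillar procollagen, 8.55, 6.76, 10.5 and 8.94 against 34.6, 41.7, 21.5 and 19.4 (-1.59 ± 0.19, adjusted p = 8.6e-07). Htra1, a secreted serine protease, ran the other way, 629 ± 34.0 against 354 ± 41.7 (0.84 ± 0.14). Without long bone replicate 2, 2 of the proteoglycans were higher.

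Of the genes outside these lists, Msmp stood furthest apart. Msmp encodes microseminoprotein, a small secreted protein. It was 4.995, 10.03, 9.25 and 7.39 FPKM in vertebral and 433, 1076, 1176 and 1041 in long bone EMB+ cells (-6.65 ± 0.33, adjusted p = 2.1e-13), and its promoter is printed above. Every long bone library lay far above the highest vertebral one, and replicate 1 was the lowest of the 4. In vertebral GFP+ EMB+ cells Msmp stood at 12.01 ± 3.23 FPKM. Other large differences of the same sign were those of Stc1, stanniocalcin, 0.0789, 0.127, 0.146 and 0.307 against 5.01, 14.0, 10.5 and 14.0 FPKM (-3.26 ± 0.19), and Rpl39l, a variant ribosomal protein, 0.286, 1.02, 1.004 and 1.14 against 16.8, 12.2, 9.27 and 13.7 (-2.91 ± 0.18). Rpl39l was the 1 gene called by limma of 83 ribosomal protein genes. Of 73 respiratory chain genes 0 were called, with 1 lower and 0 higher at an unadjusted p under 0.05. Casr, the calcium-sensing receptor, was 0.406, 0.535, 0.0885 and 0.808 against 5.84, 5.80, 11.3 and 13.9 FPKM (-2.74 ± 0.29), and Arc, an immediate early gene best known from neurons, 4.04 ± 1.99 against 30.3 ± 7.15 (-2.69 ± 0.23). Tesc, a calcium-binding protein, was 1.04 ± 0.812 against 12.1 ± 2.40 (-2.75 ± 0.34). Higher in vertebral cells were the transporter Slc6a12, 18.01, 19.4, 21.3 and 16.01 against 1.84, 1.32, 2.31 and 1.97 (2.79 ± 0.19), and Fxyd2, a regulator of the sodium pump, 162.8, 122, 186.6 and 156 against 25.5, 14.3, 25.8 and 23.6 (2.78 ± 0.35).

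Signalling ligands and their inhibitors differed in both directions. Of 33 BMP pathway genes 10 were higher and 8 lower. Bmp2 was 40.4, 59.5, 52.0 and 43.6 against 17.1, 16.9, 23.0 and 25.1 FPKM (1.22 ± 0.16, adjusted p = 2.6e-06) and Bmp4 1.02, 1.41, 1.67 and 2.15 against 7.26, 8.63, 8.34 and 7.25 (-1.81 ± 0.17, adjusted p = 1.1e-08), so these close relatives had opposite signs. Chrdl1, a secreted BMP antagonist, was 42.8, 52.7, 44.5 and 47.3 against 5.50, 7.68, 11.5 and 12.1 (2.28 ± 0.26, adjusted p = 2.7e-07). The type I receptor Bmpr1b was 5.13, 5.98, 3.86 and 4.15 against 0.186, 0.490, 0.720 and 0.530 (1.96 ± 0.20, adjusted p = 5.5e-08). Bmp1, a protease that trims procollagen, was 52.5 ± 5.88 against 131 ± 36.9 (-1.27 ± 0.15), and the target gene Id2 was 298 ± 24.7 against 145 ± 41.5 (1.08 ± 0.19).

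In the Wnt pathway 8 of 32 genes were higher and 11 lower. Wnt11, a ligand of the non-canonical branch, was 161.01, 156, 147 and 129 against 42.0, 32.9, 45.0 and 36.0 FPKM (1.91 ± 0.24, adjusted p = 1.8e-06), and Wnt5b 62.2 ± 2.62 against 41.0 ± 2.51 (0.59 ± 0.12). Notum, which inactivates Wnt proteins, was 139.8, 162.3, 144 and 116 against 34.1, 45.0, 40.5 and 34.3 (1.84 ± 0.14, adjusted p = 4.7e-10). The secreted frizzled-related inhibitors lay the other way. Sfrp2 was 1.89, 1.78, 3.38 and 2.58 against 15.6, 13.7, 19.7 and 21.1 FPKM (-2.45 ± 0.23, adjusted p = 1.7e-08), Sfrp1 3.99997 ± 0.533 against 16.4 ± 4.52 (-1.77 ± 0.18) and Sfrp4 6.73 ± 3.02 against 26.2 ± 6.46 (-1.87 ± 0.32). With Sfrp5, given above, 4 Sfrp genes were lower in vertebral cells. Without long bone replicates 1 and 2, 5 genes of the pathway were higher.

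Of 14 IGF pathway genes 7 were lower in vertebral cells, 0 higher by limma (1 at an unadjusted p under 0.05) and 7 not called, and a median of -0.768. Stc1, given above, is among them. Igf1 was 3.901, 4.50, 5.07 and 4.998 against 7.57, 15.8, 14.5 and 14.0 FPKM (-1.27 ± 0.16, adjusted p = 1.8e-06), and Igfbp5, a binding protein of bone, 6.44, 5.20, 4.77 and 9.74 against 35.5, 46.5, 50.5 and 51.4 (-2.67 ± 0.22, adjusted p = 1.1e-09). Pappa2, which cleaves IGF binding proteins, was 0.871, 2.22, 1.57 and 0.837 against 4.63, 8.66, 8.17 and 9.32 (-1.88 ± 0.23, adjusted p = 1.3e-06). Igf2, the more abundant ligand, overlapped between groups and was not called, at 809.7, 1001, 1002 and 816 against 569, 749, 1486 and 1182 FPKM, with an interval of -0.54 to 0.45. In vertebral GFP+ cells Igf1 stood at 10.7 ± 0.877, above GFP- cells (1.06 ± 0.16, adjusted p = 0.00017).

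Notch pathway genes were lower for 4 of 9, with Hey1 at 2.04 ± 0.403 against 5.52 ± 0.682 FPKM (-1.11 ± 0.15) and Dlk1 at 595 ± 67.7 against 1197 ± 227 (-0.99 ± 0.17), and with the stricter filter 1 was called. Of 18 FGF pathway genes 3 were higher and 4 lower, among them Fgfr1, 50.6 ± 7.89 against 82.7 ± 5.74 (-0.71 ± 0.12). Without long bone replicates 3 and 4, 5 FGF genes were higher. Of 31 axon guidance genes, which also steer vessels and skeletal cells, 16 were lower and 5 higher (median -0.47). Slit3 was 4.22, 2.67, 3.61 and 3.29 against 16.3, 20.3, 10.2 and 9.88 FPKM (-1.72 ± 0.22, adjusted p = 1.4e-06), and the receptor Epha4 was higher, 6.57, 5.74, 6.36 and 6.04 against 1.21, 1.52, 1.80 and 1.91 (1.47 ± 0.16, adjusted p = 2.5e-07). Of 15 TGF-beta genes 1 was higher and 3 lower, beside 8.71% and 10.7% of all genes described.

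Programmes of metabolism and matrix chemistry showed smaller or mixed differences. The counts stand beside 8.71% higher and 10.7% lower over all genes described. Of 33 genes for sulfate supply and glycosaminoglycan assembly, 9 were higher and 8 lower. Sulf1, an enzyme that removes sulfate from heparan sulfate chains, was 2.67 ± 0.905 against 10.8 ± 3.05 FPKM (-1.69 ± 0.18, adjusted p = 1.3e-07), and Chst12, which sulfates chondroitin, 145 ± 17.3 against 81.0 ± 7.48 (0.83 ± 0.12). Without long bone replicates 1 and 2, 4 genes of this list were higher, and without replicates 3 and 4, 5 were lower. Of 29 glycolysis and hypoxia genes 2 were higher and 4 lower, Vegfa and Car9 among the lower. Of 16 carriers and channels of chondrocytes 5 were higher and 3 lower, with Kcnk1, a potassium channel, at 12.9 ± 1.46 against 37.5 ± 10.5 FPKM (-1.43 ± 0.17) and Slc39a8, a zinc and manganese importer, at 8.52 ± 2.28 against 1.66 ± 0.0729 (1.81 ± 0.23). Without long bone replicates 1 and 2, 3 carriers were higher. Of 15 imprinted growth genes 2 were lower, Dlk1 and Dcn, and the Dcn call was lost without long bone replicates 1 and 2 (adjusted p = 0.0614).

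Factors that bone cells send to blood, vessels and osteoclasts were lower for 8 of 15 and higher for 1. Cxcl12, the chemokine that holds blood stem cells, was 64.7, 35.2, 48.2 and 47.8 FPKM in vertebral and 148, 198, 167.3 and 112 in long bone cells (-1.66 ± 0.21, adjusted p = 1.6e-06). Vcam1 was 5.66, 2.37, 2.93 and 2.80 against 17.6, 17.5, 18.9 and 12.5 (-2.03 ± 0.21, adjusted p = 9.7e-08), and Csf1 8.06 ± 1.53 against 18.9 ± 3.39 (-1.13 ± 0.16). The higher gene was Tnfrsf11b, osteoprotegerin, the decoy receptor of RANKL, 35.4, 50.8, 48.2 and 41.8 against 21.02, 21.4, 26.7 and 29.6 (0.81 ± 0.15, adjusted p = 0.0003), while Tnfsf11, RANKL itself, was not called (-0.47 to 0.26). Marrow stroma genes moved with the niche factors, 6 of 10 lower and 1 higher, and this list also holds Cxcl12 and Kitl. Lepr was 7.15, 6.89, 7.996 and 6.74 against 13.4, 21.5, 13.6 and 15.5 FPKM (-1.03 ± 0.19). The list summed to 160 to 195 FPKM in vertebral and 239 to 317 in long bone libraries, and its part in the niche result was not tested.

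RNA of other cell types was present and differed between libraries. The 20 leukocyte genes summed to 2518, 579.4, 4092 and 1599 FPKM in the vertebral libraries and to 740.7, 981.3, 513 and 145 in the long bone libraries, though CD45+ cells were sorted out. Ptprc, the gene of CD45, ranged from 0.262 to 1.80 FPKM in vertebral and from 0 to 0.419 in long bone libraries. Of the 16 that passed the filter 14 were higher and 0 lower at an unadjusted p under 0.05 by limma, with a median of 1.63. No share of all genes at an unadjusted p is given, so the 14 cannot be set against one. After adjustment 5 were called higher, beside 8.71% of all genes described, and 11 were not called. The count called higher ranged from 1 without long bone replicate 4 to 10 without vertebral replicate 2. It was 3 without vertebral replicate 1, 2 without vertebral replicate 3 or long bone replicate 1 or 3, 2 in a fit of the compared groups alone, 1 with a pseudocount of 0.1 and 9 with a pseudocount of 5. Endothelial genes summed to 2.89 to 18.2 and 2.29 to 5.18 FPKM, with vertebral replicate 4 the highest, where Pecam1, the gene of CD31, was 4.05 FPKM. Erythroid genes summed to 228 to 618 and 324 to 587 FPKM, and 0 of 9 were called by limma (also 0 at an unadjusted p under 0.05). Muscle genes summed to 63.2 to 79.9 and 57.0 to 64.1 FPKM, with Myf5, Myf6, Pax7, Myh3 and Myh8 listed at 0 in all 8 libraries. Of the 3 muscle genes that passed the filter, Tnnt3, a troponin of fast muscle, was higher in vertebral cells, 35.4, 29.7, 22.6 and 24.01 against 3.30, 3.62, 4.85 and 5.20 FPKM (2.46 ± 0.25, adjusted p = 6.5e-08), and so was Mylpf (0.84 ± 0.22), a call lost without long bone replicates 3 and 4 (adjusted p = 0.0698). Tnni2, another fast troponin, was 39.3, 28.8, 47.5 and 34.5 against 50.7, 55.3, 55.5 and 53.2 FPKM and was not called (-0.53 ± 0.20, adjusted p = 0.063), though its groups did not overlap and it passed as lower in 6 of the alternatives, both scalings among them (adjusted p = 0.00853 to 0.0323). Glia and neuron genes summed to 29.6 to 51.1 and 19.4 to 25.5 FPKM. The part of these cells in the results was not tested.

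Cell cycle genes were higher in vertebral cells for 12 of 33, with a median of 0.582. Top2a was 14.3, 15.7, 18.6 and 13.2 against 4.15, 6.47, 6.04 and 8.39 FPKM (1.20 ± 0.21, adjusted p = 0.00013), and Tk1 13.2 ± 2.28 against 6.57 ± 0.963 (0.91 ± 0.18). Mki67, chosen after its value was seen, was not called (0.14 ± 0.21, adjusted p = 0.74). The count was 28 in a fit of the compared groups alone or with library weights and 23 without long bone EMB- replicate 4. It was 6 without vertebral replicate 3, 7 without long bone replicate 2 or 3, and 6 without long bone replicates 1 and 2. Immediate early and stress genes, which tissue dissociation can induce, were higher for 18 of 28. Arc, an immediate early gene that is not on this list, was lower, as given above. Dusp1 was 765, 836, 741 and 644 against 216, 208, 282 and 266 FPKM (1.62 ± 0.13, adjusted p = 4.7e-10) and Jun 801, 748, 757 and 752 against 364, 385, 542 and 530.0 (0.77 ± 0.13). The list summed to 17034 to 19621 FPKM in vertebral and 9884 to 13334 in long bone libraries. Without long bone replicates 1 and 2, 9 of the 28 were higher. Whether the time or ease of dissociation differed between spine and long bones is not given in the sources used here.

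EMB- cells of the same sites were used to ask whether a site difference depended on the sort. The 2 site differences share no library, and their difference was tested in the same fit. It passed for 3183 of the 10922 genes (29.1%), 2666 with a positive and 517 with a negative sign, and its median over all genes was 0.27. That balance depended on scaling. With median-ratio scaling 1069 were positive and 943 negative (median 0.00562), and with quantile normalization 1045 and 1138 (median -0.0241). The genes called below kept their sign and their call under both scalings, except Chad. Erythroid genes summed to 7584 to 12822 FPKM in vertebral GFP- EMB- and to 21084 to 44437 in long bone EMB- libraries, and their part in these differences was not tested.

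Position genes varied in how far their site difference depended on the sort. The difference of differences was called for 6 of 15 limb factors and 7 of 13 somite and sclerotome factors, beside 29.1% of all genes, and for 2 of 8 genes of Hox cluster A, 1 of 6 of cluster C and 0 of 5 of cluster B by limma (2 at an unadjusted p under 0.05). With median-ratio scaling these counts were 6, 7, 1, 2 and 1. They stand beside 1069 positive and 943 negative of all 10922 genes under that scaling, a smaller share than 29.1%. The genes followed here differed by site in both EMB+ and EMB- cells. The limb factors among them are ones whose difference of differences was not called. Shox2 averaged 0.0625 ± 0.0830 FPKM in vertebral and 41.2 ± 11.5 in long bone EMB- cells, and its difference between site differences was 0.17 ± 0.21 (95% interval -0.26 to 0.59). The intervals were -0.22 to 0.87 for Pitx1, -0.30 to 0.67 for Tbx4, -0.80 to 0.68 for Tbx15, -0.26 to 0.64 for Hoxb7, -0.74 to 0.25 for Hoxa10 and -0.53 to 0.66 for Hoxa11. The site difference within EMB- cells was -5.28 for Shox2, -5.35 for Pitx1, -3.13 for Tbx4, -3.06 for Tbx15, 3.83 for Hoxb7, -1.70 for Hoxa10 and -2.01 for Hoxa11. Hoxc8 and Pax1 had -0.32 ± 0.20 and -0.46 ± 0.21. Both were not called here but passed with median-ratio scaling (adjusted p = 0.0167 and 0.00476) and quantile normalization (adjusted p = 0.025 and 0.00205). Pax1 passed in 7 of the alternatives. The others were a pseudocount of 5 (adjusted p = 0.000117) and library weights (adjusted p = 0.00084). It also passed without long bone EMB- replicate 3 (adjusted p = 0.0119), long bone EMB+ replicate 1 (adjusted p = 0.0485) or long bone EMB+ replicates 1 and 2 (adjusted p = 0.0231). Uncx and Tbx1 differed by site more in EMB+ cells (1.74 ± 0.19 and 2.34 ± 0.26, adjusted p = 2.3e-07 and 3.8e-07). Vertebral EMB- cells had 6.24 ± 1.05 FPKM of Tbx1, against 29.7 ± 0.754 in EMB+ cells.

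Msmp reversed between the sorts. It was higher in vertebral (42.0 ± 14.3 FPKM) than in long bone EMB- cells (2.38 ± 1.45) and lower in EMB+ cells, which gave -10.35 ± 0.47 (adjusted p = 3.7e-13). Grem1 and Car9 also changed sign. Grem1, a BMP antagonist, was 1.02 ± 0.146 against 6.39 ± 3.31 FPKM in EMB+ and 29.8 ± 3.53 against 7.66 ± 3.43 in EMB- cells (-3.67 ± 0.35, adjusted p = 2.7e-08). Car9, a carbonic anhydrase induced by low oxygen, was 1.01 ± 0.382 against 4.22 ± 1.32 in EMB+ and 36.3 ± 4.28 against 6.52 ± 2.34 in EMB- cells (-3.72 ± 0.29). Cilp, given above in EMB+ cells, averaged 188.8 ± 42.8 against 131 ± 38.3 FPKM in EMB- cells (-3.66 ± 0.38). Chst5, Padi2, Glis1 and Sbsn differed mainly in EMB- cells. Padi2, which converts arginine to citrulline in proteins, averaged 63.7 ± 13.8 against 1.29 ± 0.345 FPKM there and 2.41 ± 1.55 against 1.47 ± 0.290 in EMB+ cells (-4.43 ± 0.29, adjusted p = 4.5e-11).

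Maturation genes of cartilage were among those with a positive sign. Ihh was near 4.80 and 3.91 FPKM in the EMB- groups, far below EMB+ cells at either site, and its difference was 2.27 ± 0.29 (adjusted p = 2.3e-06). Pth1r was 94.1 ± 9.18 against 182 ± 24.3 in EMB- cells, the reverse of EMB+ cells (2.191 ± 0.16, adjusted p = 3.5e-10). Wnt11 and Arsi also reversed, with 4.44 ± 1.31 against 20.9 ± 10.1 FPKM and 1.65 ± 0.274 against 9.002 ± 1.52 in EMB- cells (3.83 ± 0.35 and 3.58 ± 0.18). Foxa2 was 3.16 ± 1.07 against 6.09 ± 2.09 (2.92 ± 0.34, adjusted p = 7.1e-07). Car8, Tspan13 and Dlx5 had 3.28 ± 0.17, 3.397 ± 0.17 and 2.75 ± 0.18, and F13a1, Fgl2, Moxd1 and Tnni2 between 3.36 (Tnni2) and 5.02 (Fgl2), each far lower in vertebral than in long bone EMB- cells. Tnni2 stands on the skeletal muscle list, which summed to 34.8 to 45.9 FPKM in vertebral GFP- EMB- and to 393 to 868.0 in long bone EMB- libraries, and the part of muscle RNA in its difference was not tested.

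Other cartilage genes had a negative sign or kept their direction. Gas1 and Clu were lower in vertebral EMB+ but higher in vertebral EMB- cells, where they averaged 1068 ± 94.3 against 504 ± 70.5 and 560.3 ± 31.6 against 162.8 ± 32.7 FPKM (-3.04 ± 0.26 and -2.70 ± 0.20). Cytl1 was higher in vertebral cells in both sorts and more so in EMB- cells, 2669.6 ± 103 against 161.6 ± 107 (-2.54 ± 0.40, adjusted p = 4.2e-05). Matn1 was lower in vertebral cells in both and more so in EMB- cells (2.37 ± 0.27). Chad had 0.93 ± 0.22 (adjusted p = 0.003), a call lost with quantile normalization (adjusted p = 0.052). Top2a was higher in vertebral EMB+ but lower in vertebral EMB- cells, 14.6 ± 2.43 against 37.3 ± 15.99 FPKM (2.43 ± 0.30, adjusted p = 1.4e-06).

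**Figure D5:**
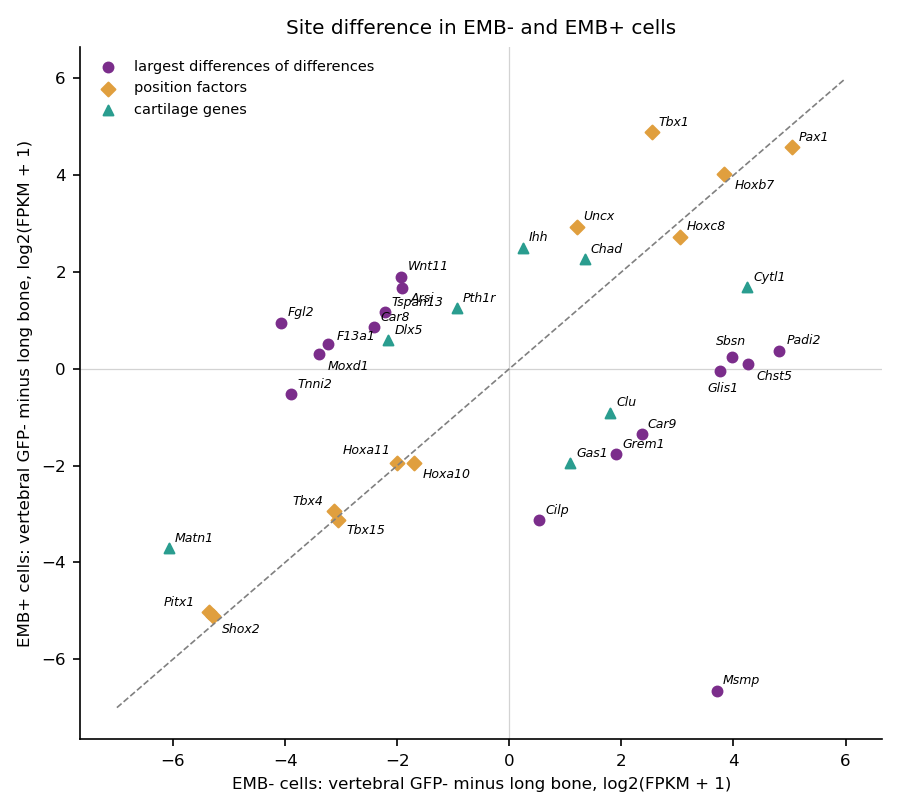
Vertebral GFP- minus long bone difference of named genes in EMB- cells (horizontal) and EMB+ cells (vertical), both log2(FPKM + 1), with equal differences on the dashed line. The position genes Shox2, Pitx1 and Hoxb7 lie near the line and Uncx and Tbx1 above it, and Msmp, Padi2 and Fgl2 lie far from it.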

How the data were processed

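RNA of sorted cells was amplified with SMART-Seq v4, made into Nextera XT libraries and sequenced, per the labels' protocols. FPKM values for 22053 protein-coding entries in 24 libraries were deposited by the authors. Cufflinks 2.1.1, STAR 2.5.2, bcl2fastq 2.19 and the build GRCm38 are named in the submitters' processing notes. The kits do not mark strand. Left out were 46 entries that repeated an identifier, 56 that repeated a symbol and 3 genes with failed estimates, which left 21948. Groups came from the cell type labels.

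All tests used log2(FPKM + 1) in limma 3.58.1 (R 4.3.3) with 6 groups of 4 libraries, empirical Bayes with trend and robust settings, and Benjamini-Hochberg adjustment over the 11768 genes at FPKM 1 or more in at least 4 libraries. A gene was called at adjusted p under 0.05. The difference of differences is the EMB+ minus the EMB- site difference. The fit was tested on simulated data. FPKM carries no read depth, so no counting interval is given.

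The genes described and the lists were chosen with earlier results of these data known. Named by rule were the sort genes, the 15 largest non-overlapping called differences in each direction (mean FPKM 5 or more in the higher group), up to 5 genes of each list by adjusted p, Hox, limb and somite factors, and 8 differences of differences in each direction. Other genes named, and other EMB- and GFP+ values, were chosen after their values were seen. Some genes under these rules are left out.

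Alternatives were pseudocounts of 0.1 and 5, no filter, FPKM 5 or more, the 8 libraries alone, quantile and median-ratio scaling, library weights and leaving out libraries. Leaving out pairs of long bone libraries, and a block for the replicate numbers in the vertebral titles, were chosen after seeing the data. Over genes, same-numbered vertebral GFP- EMB+ libraries deviated from their group means together with GFP+ EMB+ (r = 0.169 to 0.337) and GFP- EMB- libraries (r = 0.135 to 0.236), and each correlated best with its own number. Promoter sequences are from RefSeq on GRCm38.p6.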

Additional observations from a re-analysis of the deposited data

Results flagged for a closer look

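Groups of 4 values were examined for the genes named above and for shares of summed FPKM (hemoglobin, ribosomal protein, collagen and most abundant genes). Of 383 such groups, 19 (4.96%) held a library that stood apart from the other 3 by Dixon's ratio. Chance alone gives about 1 in 20 for normally distributed values. All 19 were groups of genes. In vertebral replicate 1 these were Car8 (30.3), Dcn (452), Hoxc5 (5.38), Pknox2 (3.31), Rpl39l (0.286) and Sfrp1 (3.20), in FPKM. In vertebral replicate 2 they were Hoxb9 (3.38), Slc39a8 (11.9) and Sox9 (576), in replicate 3 Mab21l2 (0.144) and Mmp13 (222) and in replicate 4 Alpl (346), Sbsn (2.95) and Tbx15 (2.37). Among long bone EMB+ libraries, replicate 2 stood apart for Hoxb7 (0.285), replicate 3 for En1 (0.0301), Hoxa11 (13.8) and T (0.117) and replicate 4 for Tbx1 (0.167). For En1, Mab21l2, T and Tbx1 the other 3 libraries of the group were listed at 0. Any value above 0 then gives the ratio of 1, so the rate of 1 in 20 does not apply to them.

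The site difference passed the test of its change between EMB+ and EMB- cells for 28 named genes, given here as the difference of differences in log2(FPKM + 1). A positive value means a vertebral minus long bone difference that was more positive or less negative in EMB+ than in EMB- cells. The somite factors Uncx (1.74) and Tbx1 (2.34) had positive values. So did the skeletal genes Arsi (3.58), Ihh (2.27), Pth1r (2.191), Matn1 (2.37), Dlx5 (2.75), Foxa2 (2.92), Chad (0.93) and Wnt11 (3.83). The cell cycle gene Top2a (2.43) followed, with Car8 (3.28), F13a1 (3.73), Fgl2 (5.02), Moxd1 (3.71), Tnni2 (3.36) and Tspan13 (3.397). Negative values were those of Msmp (-10.35), Padi2 (-4.43), Chst5 (-4.15), Glis1 (-3.80), Sbsn (-3.74), Car9 (-3.72), Grem1 (-3.67), Cilp (-3.66), Gas1 (-3.04), Clu (-2.70) and Cytl1 (-2.54).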

How the results depend on the processing

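Over the alternatives other than leaving out a pair of libraries, the number of genes higher in vertebral cells lay between 746 and 1263 and of those lower between 815 and 1413. With a pseudocount of 5, which shrinks low genes, 116 were higher and 146 lower by 2-fold or more. Without long bone EMB+ replicates 1 and 2, 508 genes were higher. The difference of differences gave 1045 positive and 1138 negative genes with quantile normalization and 1069 and 943 with median-ratio scaling. The vertebral minus long bone difference in collagen share lay between -2.034 and -1.153 percentage points without 1 library in turn, and without a vertebral library its p passed 0.05 (exact permutation p = 0.0857 to 0.114). The cause was not tested for any of these.

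Of the named genes called between sites, 138 kept the call in every alternative run and 25 lost it in at least 1, and no named gene reversed. Of 28 called differences of differences 27 kept it, as did all 12 differences of GFP+ from GFP- cells. FPKM gives no read depth, so the precision of low values rests on the spread of 4 libraries. With the vertebral replicate numbers as a replicate block the difference of differences gave 2711 positive and 521 negative genes, and no call of a named gene changed in it or in the GFP+ minus GFP- difference. No paired analysis was possible between sites because all 4 long bone EMB+ titles carry replicate number 1, so the groups share fewer than 2 numbers.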
